A study of Mus musculus with 9 samples.

Results

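The genes described here encode the amino acid and peptide transporters of the mouse enterocyte, the absorptive cell of the small intestine. They are the 9 rows of the deposited expression table with the symbols Slc6a19, Slc6a18, Slc6a20a, Slc7a9, Slc3a1, Slc1a1, Slc15a1, Slc36a1 and Slc7a7, of 19360 genes in the table. They were chosen by symbol, for the function of their products, with earlier results of these data known. Counts of these genes set beside shares of all genes are therefore descriptions. All 9 passed the filter on low values that left 14199 genes for testing. The libraries came from poly(A) RNA of the small intestine of BALB/c mice, taken 12 h after total body irradiation (TBI) with 9 Gy, and fell into 3 groups of 3 mice. TBI mice were irradiated and received nothing else. 3pRNA + TBI mice were given 3pRNA, a 5′-triphosphate RNA that activates the RNA sensor RIG-I, 24 h before irradiation. 3pRNA + anti-IFNAR1 + TBI mice, called the blockade group below, were given an antibody that blocks the type I interferon receptor 48 h before and 3pRNA 24 h before irradiation. All groups were irradiated, and none of these libraries came from mice given the RNA carrier or an isotype antibody alone, so effects of carrier and RNA cannot be told apart, nor can those of blocking the receptor and of an antibody as such.

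Dietary protein reaches the enterocyte as free amino acids and as short peptides, which carriers of overlapping specificity take up across the brush border. Uptake is driven by the sodium or proton gradient or by exchange for amino acids already in the cell, and a separate set of exchangers on the basolateral side passes the amino acids on to the blood. Several of these carriers work only with a partner protein that brings them to the membrane, and inherited loss of some of them causes aminoaciduria in humans, such as Hartnup disorder and cystinuria.

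To show what lies in front of these genes, 3 promoter windows are given, as RefSeq annotates them on GRCm38.p6. Each holds the 250 bases before an annotated transcription start, written 5′ to 3′ on the strand of the gene. Slc3a1 and Slc6a19 were chosen because they had the highest levels per length among the 9 genes, and Slc6a20a because it holds a motif of an enterocyte factor close to the start. Capitals in Slc3a1 mark CAAAGTCCA, a binding motif of HNF4, and in Slc6a20a GTTAAT, a half-site of HNF1. HNF4 and HNF1 are transcription factors of the enterocyte.
Slc3a1, chr17:85028097-85028346, plus strand: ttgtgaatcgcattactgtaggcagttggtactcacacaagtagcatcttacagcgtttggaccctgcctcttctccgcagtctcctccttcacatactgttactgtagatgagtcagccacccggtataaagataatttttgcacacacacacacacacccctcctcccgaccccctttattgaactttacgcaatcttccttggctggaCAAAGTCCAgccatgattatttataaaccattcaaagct
Slc6a20a, chr9:123678833-123679082, minus strand: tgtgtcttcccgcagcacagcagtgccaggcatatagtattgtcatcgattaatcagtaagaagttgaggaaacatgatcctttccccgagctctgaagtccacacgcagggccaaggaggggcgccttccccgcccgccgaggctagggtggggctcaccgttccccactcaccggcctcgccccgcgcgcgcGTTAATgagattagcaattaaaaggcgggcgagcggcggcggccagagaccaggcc
Slc6a19, chr13:73692637-73692886, minus strand: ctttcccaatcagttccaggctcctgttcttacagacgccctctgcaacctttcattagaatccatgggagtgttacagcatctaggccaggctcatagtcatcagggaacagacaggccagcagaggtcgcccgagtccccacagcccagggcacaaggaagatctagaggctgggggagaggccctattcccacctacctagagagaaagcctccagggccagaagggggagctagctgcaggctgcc

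Of the 9 genes, 8 matched a RefSeq promoter, with 13 windows in all. Slc6a18 was not among them. Searched on both strands, CAAAGTCCA was found in 1 of the 13 windows, that of Slc3a1, where it began 39 bases before the start, and in 0.384% of 32851 mouse promoter windows of the same length. GTTAAT was found in 3 of the 13, from Slc6a20a (56 bases before the start), Slc7a7 and Slc36a1, and in 6.43% of all windows. The core of the interferon-stimulated response element, GAAA followed by any pair of bases and GAAA again, was in 0 of the 13 windows and in 2.98% of all. No window of these genes held more than 1 of these motifs, so none overlapped another. A match describes letters in the window and shows no binding.

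Libraries held 6487053 to 19946586 reads in genes. The values below are scaled counts, that is, read counts divided by the size factor of the library. Each is a tally from bulk tissue, so fewer cells of a type and less RNA per cell cannot be told apart. Of 8 ileal genes, Fabp6, the ileal bile acid binding protein, had 18399 to 28934 scaled counts and Fgf15, a hormone of the ileal enterocyte, the lowest level with 28.9 to 187. Of the 7 genes of the proximal list, Gata4, Onecut2, Lct, Gip and Pdx1 had at most 31.2 scaled counts in any library, Cybrd1 had 39.1 to 84.5, and Slc40a1, the iron exporter, had 396 to 955. The summed proximal list was 813 to 1056 in TBI, 488 to 553 in 3pRNA + TBI and 642 to 911 in blockade, and with 3pRNA 1 of its 4 genes tested fell, Slc40a1 (-0.96, limma adjusted p = 0.012). The treatment was read from 6 interferon-stimulated genes, of which 5 rose with 3pRNA and 6 fell with blockade. One blockade library stood apart, since the summed level of these 6 genes was 3655 in replicate 2 and 1518 and 1376 in replicates 1 and 3, against 2413 to 3187 in TBI and 7246 to 9421 in 3pRNA + TBI. Smooth muscle, nerve and fat markers differed between the groups, and their values stand beside the result they could touch.

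Slc6a18 was the 1 gene of the 9 that passed the test, lower with 3pRNA and higher again with blockade. It encodes a sodium-dependent transporter of neutral amino acids, B0AT3, studied mainly in the proximal tubule of the kidney. The TBI libraries had 349, 559 and 392 scaled counts, the 3pRNA + TBI libraries 143, 173 and 166, and the blockade libraries 287, 325 and 250.2. The groups did not overlap in any of the 3 pairings, with TBI highest, 3pRNA + TBI lowest and blockade between them. The means were 433 ± 111, 161 ± 15.4 and 287.5 ± 37.5 scaled counts (SD, n = 3 each), each value resting on 145 to 480 reads.

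With 3pRNA before irradiation, Slc6a18 fell by 1.40 on the log2 scale against TBI alone (SE 0.17, 95% interval -1.77 to -1.03, limma adjusted p = 0.0027), which is a level 2.64-fold lower. Its fall stood at the 0.08th percentile of the log2 changes of all genes tested. In this comparison 5.59% of all genes tested passed the threshold of adjusted p under 0.05, and 2.11% did so as lower, against 1 of the 9 transporter genes. The 300 genes lower became 45 without 3pRNA + TBI replicate 1 and 555 without 3pRNA + TBI replicate 2. Groups did not overlap in 25.2% of all genes, 13% with 3pRNA lower, again against 1 of 9. The fall of Slc6a18 passed in 19 of 19 alternative settings, from -1.54 to -1.20, with adjusted p from 5.3e-04 to 0.019.

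When the interferon receptor was blocked before 3pRNA, Slc6a18 was 1.78-fold higher than with 3pRNA alone, a log2 change of 0.83 (SE 0.17, 95% interval 0.46 to 1.20, limma adjusted p = 0.036). Here 1.42% of all genes passed, 0.19% as higher, against 1 of the 9. Groups did not overlap in 15.5% of all genes, against 2 of the 9. These were Slc6a18, with blockade higher as in 8.25% of all genes, and Slc7a7, with blockade lower. This rise was close to the threshold. It passed in 11 of 19 alternative settings, in which the log2 change ran from 0.74 to 0.93 and the adjusted p from 0.0062 to 0.18. It was past the threshold in 2 of the 9 fits that each left out a library, those without TBI replicate 1 or 2. Without TBI replicate 3 the adjusted p was 0.052, without 3pRNA + TBI replicate 1, 2 or 3 it was 0.18, 0.068 and 0.080, and without blockade replicate 1, 2 or 3 it was 0.14, 0.14 and 0.061. Blockade replicate 2, with the highest interferon gene level of its group, also had the highest Slc6a18, and without it the log2 change was 0.74. Replicate 2 had the highest Slc6a18 in TBI and in 3pRNA + TBI as well. There its summed interferon gene level was the lowest of the group. The 2 comparisons share the 3pRNA + TBI libraries.

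Between blockade and TBI alone Slc6a18 differed by -0.57 on the log2 scale (95% interval -0.94 to -0.20, limma adjusted p = 0.22) and did not pass, although the 3 blockade libraries were below the 3 TBI libraries. Of all genes, 0% passed here, while 1753 (12.3%) had an unadjusted p under 0.05. Groups did not overlap in 19.1% of all genes, 12.1% with blockade lower, against 1 of the 9.

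**Figure D1:**
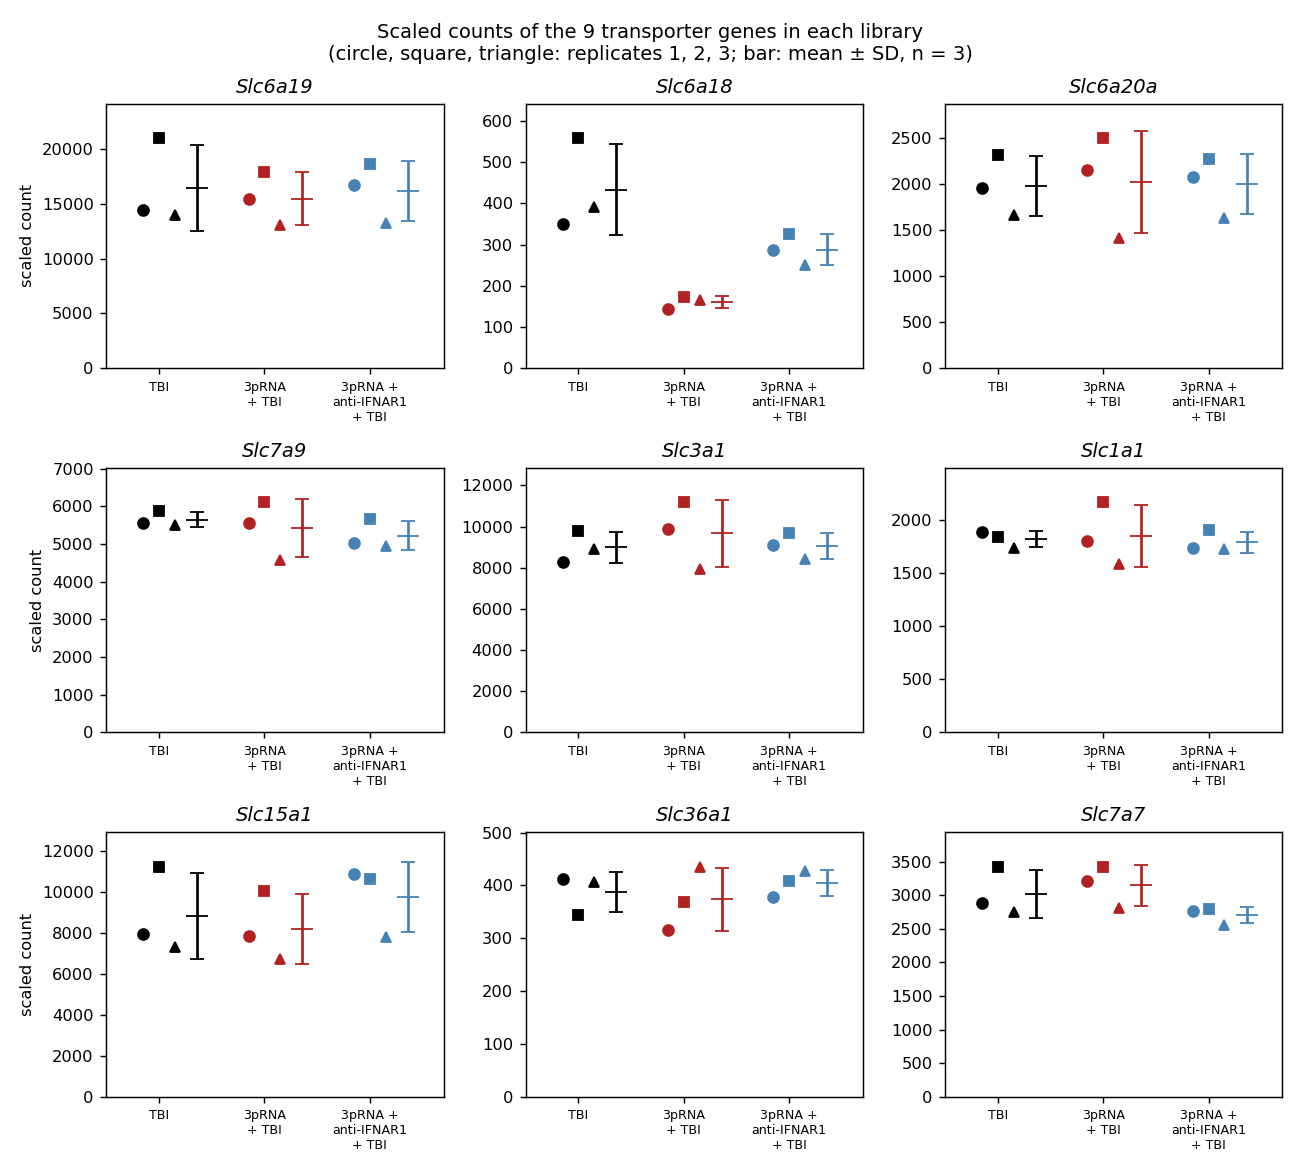
Scaled counts of the 9 transporter genes (y axis, from 0) in the 3 groups, with 1 point per library and the mean ± SD beside the points. Slc6a18 sits at 349 to 559 in TBI, 143 to 173 in 3pRNA + TBI and 250.2 to 325 in blockade, while in each of the other genes the TBI and 3pRNA + TBI points overlap.

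Slc6a19, the neighbour of Slc6a18 on chromosome 13 with 0 genes between them, gave no such difference. It encodes B0AT1, the main sodium-dependent carrier of neutral amino acids in the brush border, which is lost in Hartnup disorder. The TBI libraries had 14502, 21034 and 13987 scaled counts, the 3pRNA + TBI libraries 15461, 17915 and 13085, and the blockade libraries 16760, 18668 and 13243. The ranges overlapped in all pairings, and replicate 2 was the highest library in every group. The log2 change with 3pRNA was -0.08 (95% interval -0.49 to 0.33, limma adjusted p = 0.85), so these libraries leave room for a change of up to 1.26-fold upward or to 0.71 of the TBI level.

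Taken as a percentage of Slc6a19 in the same library, Slc6a18 was at 2.41, 2.66 and 2.80% in TBI, 0.927, 0.965 and 1.27% in 3pRNA + TBI and 1.71, 1.74 and 1.89% in blockade. Relative to the mean, the spread narrowed on this scale within TBI and blockade. Within 3pRNA + TBI it widened (1.05 ± 0.19%, against 161 ± 15.4 scaled counts of Slc6a18). The groups stayed apart. This ratio was chosen after the values were seen and carries no test. The longest run of identical bases between the transcripts of both genes is 29 bases. An antisense transcript, Slc6a19os, overlaps Slc6a19 and had 0 to 5.88 scaled counts in these libraries.

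**Figure D2:**
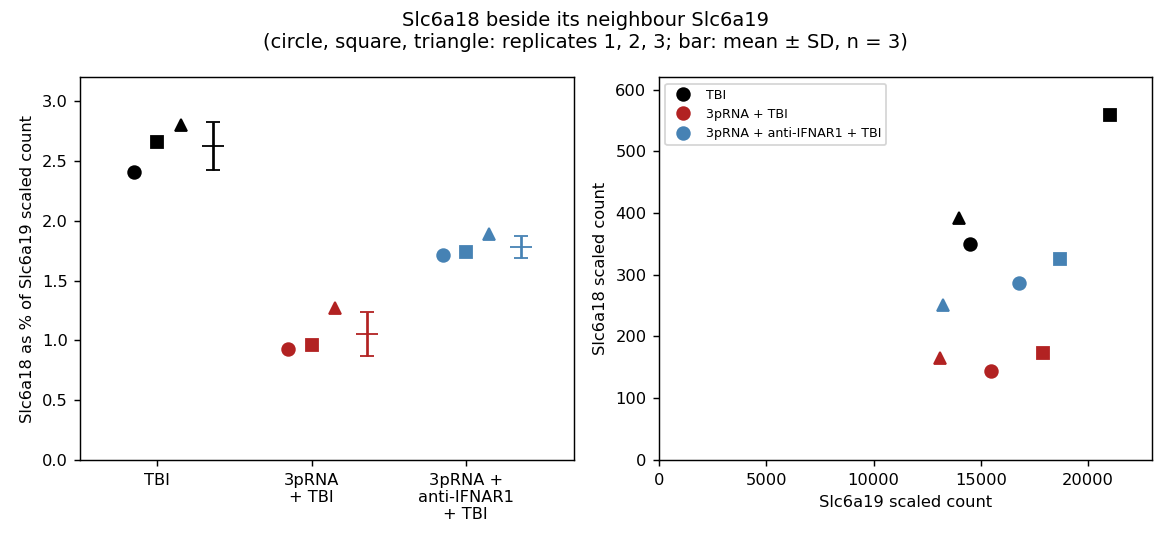
Left, Slc6a18 as a percentage of the Slc6a19 scaled count in each library with the mean ± SD (n = 3). Right, both scaled counts against each other, 1 point per library. Percentages run from 2.41 to 2.80 in TBI, from 0.927 to 1.27 in 3pRNA + TBI and from 1.71 to 1.89 in blockade, over similar Slc6a19 levels.

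Slc6a20a, which encodes the sodium-dependent carrier of proline and other imino acids, had 1980 ± 329 scaled counts in TBI, 2026 ± 554 in 3pRNA + TBI and 1999 ± 328 in blockade (SD, n = 3 each). Its largest log2 change in the 3 comparisons was 0.01, with 95% intervals between -0.44 and 0.46. The share of its variance that lay between groups was 0.044%. A close copy, Slc6a20b, shares a run of 321 identical bases with it, so that the split of reads between both genes is uncertain. Slc6a20b itself had 7.68 to 24.3 scaled counts.

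Slc7a9 and Slc3a1 encode the light and heavy chain of the brush border exchanger b0,+, which takes up cystine and the dibasic amino acids in exchange for neutral ones. Loss of either chain causes cystinuria in humans. Slc7a9 had 5642 ± 200.2, 5415 ± 768 and 5213 ± 384 scaled counts in TBI, 3pRNA + TBI and blockade. Slc3a1 had 8988 ± 738, 9668 ± 1620 and 9076 ± 626 in the same order. None of their changes passed. With 3pRNA the light chain was at -0.07 (95% interval -0.31 to 0.17, limma adjusted p = 0.76) and the heavy chain at 0.09 (95% interval -0.19 to 0.38, limma adjusted p = 0.72) on the log2 scale.

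The ratio of light to heavy chain ran slightly lower in the mice that had received 3pRNA. The log2 ratio of Slc7a9 to Slc3a1 was -0.67 ± 0.08 in TBI, -0.83 ± 0.04 in 3pRNA + TBI and -0.80 ± 0.05 in blockade (SD, n = 3 each). TBI libraries lay above all others, from -0.73 to -0.58 against -0.87 to -0.77. An exact two-sided permutation test gave p = 0.10 for each of these comparisons with TBI, the smallest that 3 libraries against 3 can give, and 0.30 when adjusted over the 15 ratio tests made.

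Slc1a1 encodes the sodium-dependent carrier of glutamate and aspartate, EAAT3. It had 1825 ± 78.8 scaled counts in TBI, 1855 ± 295 in 3pRNA + TBI and 1793 ± 102 in blockade (SD, n = 3 each). Its log2 changes lay between -0.04 and 0.01 and its 95% intervals between -0.27 and 0.25. These were among the narrowest intervals of the 9 genes.

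Slc15a1 encodes PEPT1, the proton-coupled carrier that takes up di- and tripeptides. Its scaled counts were 7961, 11234 and 7286 in TBI, 7839, 10066 and 6713 in 3pRNA + TBI and 10874, 10632 and 7799 in blockade. All ranges overlapped. Its log2 change was -0.10 with 3pRNA (95% interval -0.53 to 0.33, limma adjusted p = 0.81) and 0.26 with blockade against 3pRNA (95% interval -0.18 to 0.69, limma adjusted p = 0.73). These wide intervals came with a large spread within groups, with SDs of 1706 to 2112 scaled counts. Slc9a3 encodes the sodium-proton exchanger NHE3, which maintains the proton gradient that PEPT1 uses. The log2 ratio of Slc15a1 to Slc9a3 was 3.68 ± 0.29 in TBI, 3.61 ± 0.26 in 3pRNA + TBI and 4.10 ± 0.20 in blockade (SD, n = 3 each). Blockade did not overlap 3pRNA + TBI (exact two-sided permutation p = 0.10, adjusted 0.30).

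Slc36a1 encodes PAT1, a proton-coupled carrier of small neutral amino acids that also lies in the lysosome membrane. It had the lowest level per length after irradiation alone, with 388 ± 37.7 scaled counts in TBI, 374 ± 59.9 in 3pRNA + TBI and 405 ± 24.8 in blockade (SD, n = 3 each). The log2 changes were -0.06, 0.13 and 0.06 for 3pRNA against TBI, blockade against 3pRNA and blockade against TBI, and none passed. Its libraries did not follow the order of the other genes. In TBI, replicate 2 was its lowest library with 345 scaled counts, and in 3pRNA + TBI and blockade replicate 3 was its highest with 436 and 428.

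Slc7a7 encodes y+LAT1, the light chain that with the heavy chain 4F2hc (Slc3a2) passes dibasic amino acids out of the cell on the basolateral side. It was the 1 basolateral carrier of the set. Its scaled counts were 2891, 3425 and 2746 in TBI, 3216, 3414 and 2816 in 3pRNA + TBI and 2763, 2790 and 2561 in blockade. The blockade libraries lay below all 3pRNA + TBI libraries, as 7.25% of all genes did. The log2 change of -0.22 had a 95% interval of -0.44 to 0.0083 and did not pass (limma adjusted p = 0.50). Relative to Slc3a2, the log2 ratio was 1.10 ± 0.07 in TBI, 1.05 ± 0.01 in 3pRNA + TBI and 0.87 ± 0.05 in blockade (SD, n = 3 each). Blockade lay below the other groups (exact two-sided permutation p = 0.10, adjusted 0.30, against each).

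**Figure D3:**
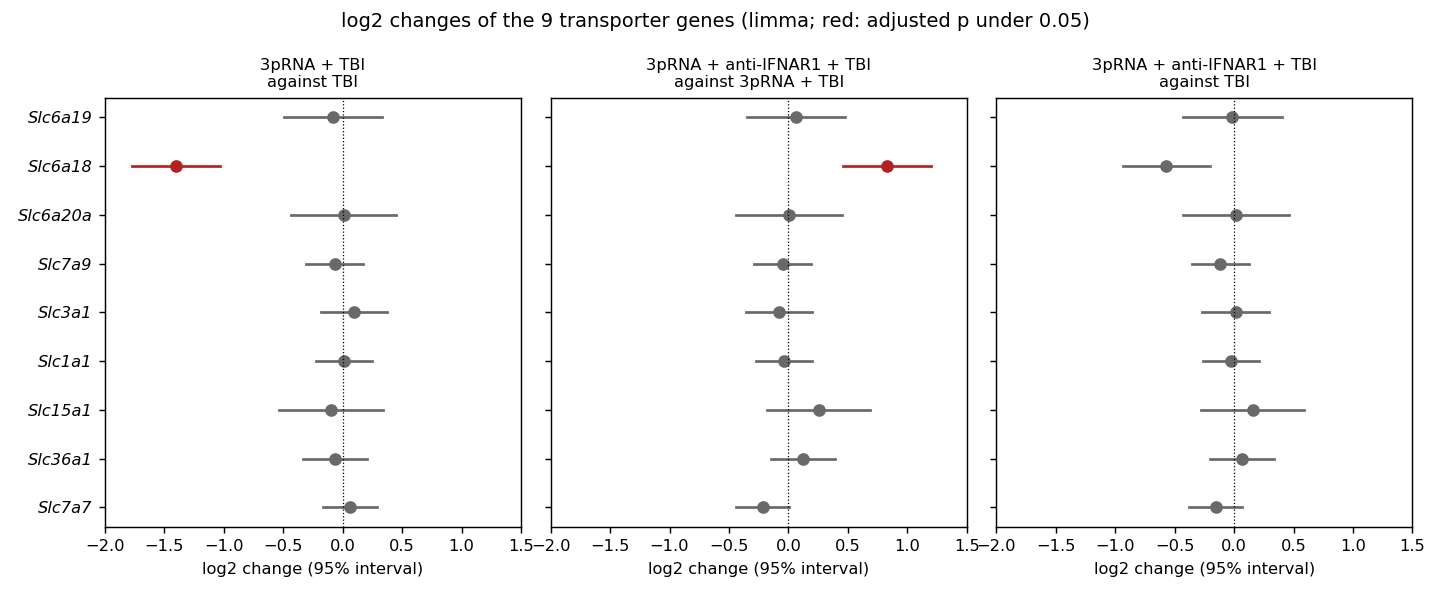
log2 changes (x axis) of the 9 transporter genes (y axis) in the 3 comparisons, with 95% intervals from limma. Red points passed an adjusted p under 0.05. Slc6a18 stands at -1.40, 0.83 and -0.57, and the other 8 genes lie between -0.22 and 0.26.

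By limma 0 of the 8 other transporter genes passed in any comparison, and 0 had an unadjusted p under 0.05. Their log2 changes with 3pRNA ran from -0.10 to 0.09, with 95% intervals between -0.53 and 0.45 and a lowest limma adjusted p of 0.72. For blockade against 3pRNA they ran from -0.22 to 0.26 with a lowest adjusted p of 0.50, and for blockade against TBI from -0.15 to 0.16 with a lowest adjusted p of 0.56. The median of all 9 was -0.06, 0.01 and -0.01 in the 3 comparisons, and that of all genes tested -0.02, 0.0027 and -0.02. Scaling libraries to equal totals moved the median of all genes with 3pRNA to 0.09, and scaling to epithelial markers to 0.15. Both gave Slc6a19, Slc7a9, Slc15a1 and Slc36a1 a positive sign, so the signs of changes of this size depend on the scaling.

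Per kilobase of exon, the 9 genes spanned a wide range after irradiation alone. Slc3a1 had 3958 ± 325 and Slc6a19 3298 ± 785 scaled counts per kilobase in TBI (SD, n = 3), and their ranges overlapped. Slc7a9 with 2108 ± 74.8 and Slc15a1 with 1807 ± 432 followed, again overlapping each other. Slc7a7 with 911 ± 108, Slc6a20a with 485 ± 80.6, Slc1a1 with 221 ± 9.54, Slc6a18 with 98.1 ± 25.0 and Slc36a1 with 69.0 ± 6.71 came next, each without overlap with its neighbour. With 3pRNA, Slc6a18 at 36.4 ± 3.48 was below Slc36a1 at 66.4 ± 10.6 and took the last place, and the other genes kept their order of means. In blockade Slc6a18 stood at 65.1 ± 8.49 and Slc36a1 at 71.9 ± 4.40 per kilobase, with overlapping ranges.

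Apart from Slc6a18, most variation lay between libraries within a group. The share of variance between the groups was 89.3% for Slc6a18, 41.3% for Slc7a7 and 0.044 to 15.7% for the other 7 genes, where the median of all genes tested was 33.5%. In replicate 2 of every group, 7 of the 8 other genes were above their mean, and in replicate 3 of each group 1 or 2 were. The replicate numbers carry no statement that they mark a litter or a day.

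The genes whose levels most resembled the mean of the 9 standardized transporter genes over the 9 libraries were Crat (Pearson r = 0.975), Slc10a2 (0.972), Enpep (0.971), Ggt1 (0.965) and Zfyve9 (0.962). Slc10a2 is the ileal sodium-dependent bile acid carrier, and Enpep and Ggt1 encode brush border enzymes that split peptides and glutathione. These coefficients describe 9 libraries that share tissue, depth and scaling. Among the transporter genes, 6 had coefficients of 0.829 to 0.929 with the mean to which they contribute, Slc7a7 had 0.684, Slc6a18 0.377 and Slc36a1 -0.50. After the group means had been subtracted, Arl13b (0.991), Gm6652 (0.984), Itfg1 (0.984) and Acsm3 (0.984) were among the 5 closest genes, and Slc6a18 rose to 0.682.

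Of 20 other amino acid carriers of the plasma membrane, 0 passed in any comparison by limma, with 3, 1 and 0 at an unadjusted p under 0.05. The median of these carriers was -0.03 with 3pRNA and 0.03 with blockade against 3pRNA. With 3pRNA the smallest p belonged to Slc6a8, a creatine carrier (-0.39, adjusted p = 0.16), Slc38a2 (-0.20, 0.17) and Slc38a1 (-0.21, 0.21), carriers of small neutral amino acids such as glutamine, and Slc1a5 (0.23, 0.27), a neutral amino acid exchanger. Of the 7 partner and ion gradient genes tested, 0 passed and 0 had an unadjusted p under 0.05. Tmem27, which encodes collectrin, the partner of B0AT3 in the mouse kidney, was close to absent at 2.96 to 8.49 scaled counts.

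Of 10 brush border peptidases, which release amino acids and short peptides, 0 passed with 3pRNA by limma and 2 had an unadjusted p under 0.05, with a median of -0.11, and the gene with the smallest p was Mme, the neprilysin gene, at -0.87 (adjusted p = 0.085). Of 6 cytosolic peptidases 0 passed and 0 had an unadjusted p under 0.05 (median -0.14). Of 10 genes of enterocyte amino acid metabolism 0 passed and 2 had an unadjusted p under 0.05 (median -0.05), Cps1, the first enzyme of citrulline synthesis, being at -0.39 (adjusted p = 0.12).

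Among 10 genes of the amino acid response, which the factor ATF4 drives when amino acids run short, 1 rose and 1 fell with 3pRNA. With an unadjusted p under 0.05 there were 5, in both directions. Ddit3, the CHOP gene, went from 110 ± 9.65 to 204 ± 36.3 scaled counts (log2 change 0.87, limma adjusted p = 0.015), and was at 104 ± 13.3 with blockade (-0.95 against 3pRNA, limma adjusted p = 0.0099). Ddit4, an inhibitor of mTORC1 signalling, fell from 704 ± 21.5 to 426 ± 42.2 (-0.73, limma adjusted p = 0.0041) and stayed at 438 ± 37.4 with blockade. Atf4 itself was at 0.25 (adjusted p = 0.10). Of 11 transcription factors of the enterocyte, Klf5 fell with 3pRNA (-0.31, limma adjusted p = 0.048) and the other 10 did not pass. The list had a median of -0.20, and 2 of the 11 had an unadjusted p under 0.05.

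Lists of epithelial genes were read beside the transporters. Here as in the lists above, counts at an unadjusted p under 0.05 have no share of all genes beside them and are descriptions. Of 8 general epithelial markers 0 passed with 3pRNA by limma and 2 had an unadjusted p under 0.05 (median -0.17). Of 11 enterocyte markers 1 fell, Rbp2, a retinol binding protein (-0.49, limma adjusted p = 0.030), and 6 had an unadjusted p under 0.05. The list median was -0.42, with Alpi, the intestinal alkaline phosphatase, at -0.66 (limma adjusted p = 0.053) and Sis at 0.33 (0.56). Of 9 villus tip genes, 5 with 3pRNA and 3 with blockade against 3pRNA had an unadjusted p under 0.05. After adjustment 3 fell with 3pRNA and the same 3 rose with blockade. They were Nt5e, which makes adenosine from AMP, at -1.70 and 1.21, Slc28a2, a nucleoside carrier, at -1.39 and 1.24, and Ada, adenosine deaminase, at -1.32 and 1.05, with limma adjusted p of 0.0041, 6.6e-04 and 0.0014 for the fall and 0.019, 7.1e-04 and 0.0037 for the rise. These 3 were known from earlier results of these data to move this way. The other 6 did not pass in either comparison, and with 3pRNA they ran from -0.99 to 0.01. The list median was -0.34 with 3pRNA and 0.26 with blockade against 3pRNA. Of 8 crypt markers 0 passed with 3pRNA and 0 had an unadjusted p under 0.05 (median -0.16). Among 8 ileal genes 0 passed and 2 had an unadjusted p under 0.05, Cubn at -0.76 and Fgf15 at 1.12 (median 0.09).

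**Figure D4:**
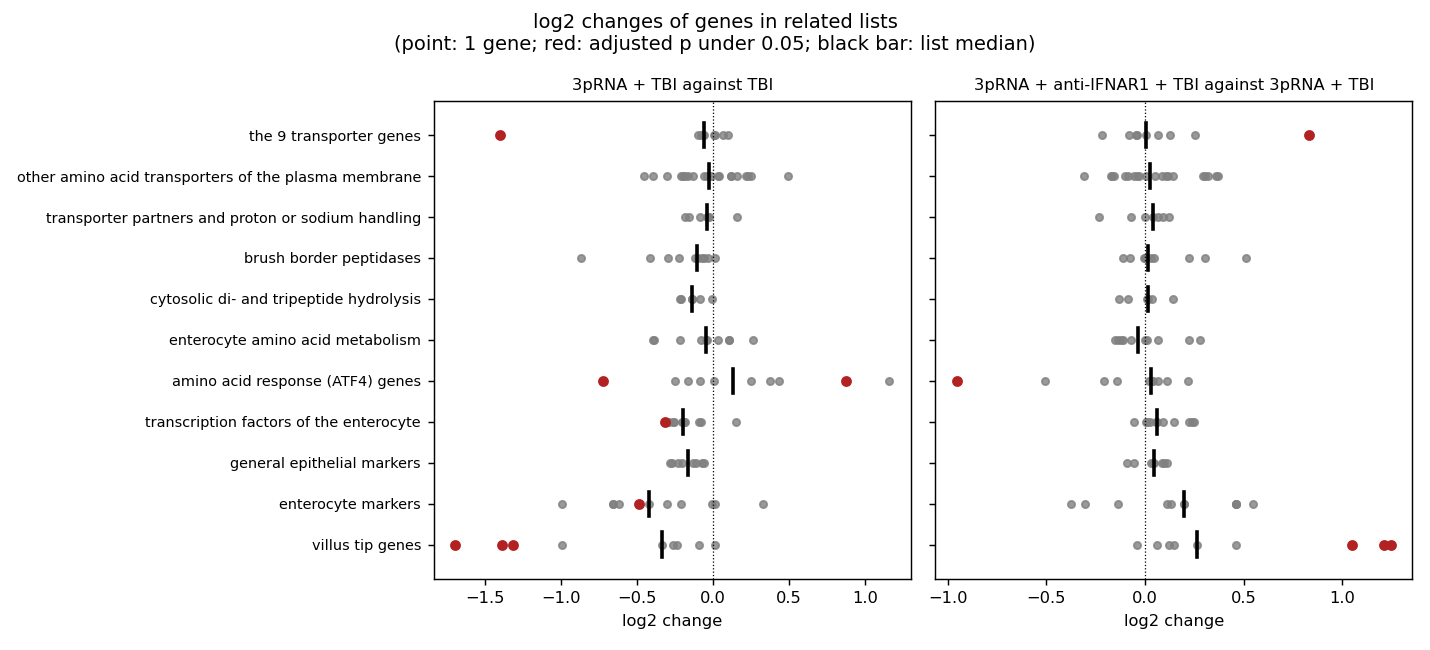
log2 changes (x axis) of the 9 transporter genes and of 10 related lists (y axis), 1 point per gene, for 3pRNA against TBI (left) and blockade against 3pRNA (right). Red points passed an adjusted p under 0.05 and black bars are list medians. Slc6a18 is the 1 red point of the top row at -1.40 and 0.83, and 3 villus tip genes reach -1.70 to -1.32 and 1.05 to 1.24.

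Markers of other cell types moved with the groups beside the fall of Slc6a18. With 3pRNA, 494 of the 14199 genes tested passed as higher. Of 10 smooth muscle markers 6 rose. The summed scaled count of the 10 was 5620 to 18607 in TBI, 21953 to 28434 in 3pRNA + TBI and 16018 to 26710 in blockade. Of 8 nerve and glia markers 5 rose, and the sum was 139 to 273, 352 to 427 and 256 to 403. Of 8 adipocyte markers 7 rose, and the sum was 429 to 742, 1273 to 2665 and 552 to 2489, with Adipoq, Plin1, Cfd and Lep at 0 in every TBI library and in blockade replicate 2. Of 9 leukocyte markers 3 fell, the T cell genes Cd8a, Cd3e and Cd3g, while the sum was 1611 to 4430, 1341 to 3768 and 1492 to 3272. The muscle sum was low in TBI replicates 1 and 3 (5768 and 5620) and higher in replicate 2 (18607), the library with the highest Slc6a18. Without TBI replicates 1 and 3, a choice made after seeing the data that left 1 TBI library, assumed to vary like the other groups, Slc6a18 was at -1.80 (limma adjusted p = 0.0027). The library kept has the highest Slc6a18, so the larger fall follows from the choice. Scaled to the general epithelial markers, its change was -1.23 (limma adjusted p = 0.0053) with 3pRNA. The summed proximal genes, given above and mostly Slc40a1, were also lowest in 3pRNA + TBI. The part of muscle, nerve, fat, T cell and proximal RNA in the result was not tested.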

How the data were processed

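Poly(A) RNA of the small intestine of 9 irradiated mice in 3 labelled groups of 3 was sequenced. According to the study's methods, the authors mapped reads with STAR to mm9 and counted them with HTSeq. The deposited values are a signal, counts divided by the size factor of DESeq with 1 added by the authors. The 1 was subtracted here, after which all values were whole multiples of 1 read (within 0.02). The deposited tables of the authors' own comparisons hold group means, fold changes and p-values and were not used. No column lacked a sample.

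log2(scaled count + 1) was fitted with limma 3.58.1 (variance trend) in R 4.3.3, in 1 model over all 3 groups, for genes whose scaled counts averaged 10 or more over all libraries (14199 of 19360). Adjusted p-values are Benjamini-Hochberg over all genes tested within a comparison, with a threshold of 0.05. The script was tested on simulated data. Fold changes understate those of low genes. Ratios were compared by exact permutation. Exon lengths were the union of exons on GRCm38, and promoters came from RefSeq.

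Text names all 9 transporter genes, up to 4 genes of each of 21 lists by smallest p with 3pRNA, genes used in ratios, and the 5 genes most like the 9. The members and lists were chosen with earlier results of these data known. Slc6a19os, Slc6a20b, Sis and the ratio of Slc6a18 to Slc6a19 were added after values were seen, as were single genes of the tissue and fat markers. Of a pancreatic acinar list, 0 of 2 genes in the table reached the filter. Whether counting used strand is not given in the sources used here. Some genes and 1 of the ratios tested are not reported here. The main fit did not pair libraries by replicate number, and whether the numbers mark a pairing is not stated. Alternatives were equal totals, scaling to epithelial markers, other pseudocounts and filters, no trend, fits of 2 groups, a replicate block and leaving out each library.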

Additional observations from a re-analysis of the deposited data

How the results depend on the processing

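The fall of Slc6a18 with 3pRNA kept its direction and its side of the threshold in all 19 alternatives. Its rise with blockade kept its direction in all 19 and passed in 11, and the count of transporter genes called in that comparison was 0 without the variance trend (Slc6a18 adjusted p = 0.12) and 0 to 1 with each library left out. Over all genes, the calls for 3pRNA against TBI numbered 794, and 1217 after scaling to epithelial markers (1100 higher and 117 lower, against 494 and 300), 209 without trend, 453 in the fit of both groups alone, 104 without TBI replicates 1 and 3, and 140 to 920 with each library left out. Equal totals gave 803 higher and 175 lower, and leaving out 3pRNA + TBI replicate 2 gave 365 higher and 555 lower. For blockade against 3pRNA they numbered 201, 103 without trend and 89 to 223 with each library left out. For blockade against TBI they numbered 0, and 0 to 355 with each library left out, the highest without TBI replicate 2. The cause of these moves was not tested. With a replicate block, which assumes that the same number marks a pairing, 1223 genes were called for 3pRNA against TBI (642 higher and 581 lower) and 1 for blockade against TBI, and it changed no call of a transporter gene. Same-numbered libraries deviated together with correlations of -0.19 to 0.34, over 0.1 in 5 of 9 pairs.

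Changes near 0 turned sign. Under equal totals the log2 change with 3pRNA was 0.035 for Slc6a19, 0.045 for Slc7a9, 0.014 for Slc15a1 and 0.050 for Slc36a1. Under epithelial scaling these were 0.093, 0.10, 0.072 and 0.11. For blockade against 3pRNA Slc6a20a went to -0.0037 and -0.026 under equal totals and epithelial scaling. For blockade against TBI Slc6a19 went to 0.089 and 0.12, Slc1a1 to 0.077 and 0.11, and Slc7a9 under epithelial scaling to 0.023. With each library left out, log2 changes with 3pRNA ran from -0.19 to 0.11 for Slc6a19, -0.17 to 0.24 for Slc6a20a, -0.16 to 0.046 for Slc7a9, -0.017 to 0.23 for Slc3a1, -0.11 to 0.12 for Slc1a1, -0.26 to 0.087 for Slc15a1, -0.18 to 0.051 for Slc36a1 and -0.0038 to 0.16 for Slc7a7. For blockade against 3pRNA they ran from -0.051 to 0.20 for Slc6a19, -0.23 to 0.18 for Slc6a20a, -0.16 to 0.044 for Slc7a9, -0.21 to 0.032 for Slc3a1 and -0.15 to 0.080 for Slc1a1. For blockade against TBI they ran from -0.12 to 0.17 for Slc6a19, -0.11 to 0.15 for Slc6a20a, -0.040 to 0.077 for Slc3a1 and -0.020 to 0.11 for Slc36a1. Log2 ratio differences ran from -0.17 to 0.10 for Slc15a1 to Slc9a3 with 3pRNA, and for blockade against 3pRNA from -0.15 to 0.12 for Slc6a18 to Tmem27. The last was 0.28 with a pseudocount of 5. In the main setting the Slc6a18 to Tmem27 difference was -0.74 with 3pRNA, -0.05 for blockade against 3pRNA and -0.79 for blockade against TBI. Exact two-sided permutation gave p = 0.20, 0.90 and 0.20 for these. This ratio rests on Tmem27 at 2.96 to 8.49 scaled counts, so it depends on the pseudocount. Of 516 alternative values of a transporter gene's change, 44 turned sign, and 0 of these concerned Slc6a18.

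Tests on counts, though listed as alternatives, were not run on these scaled values, although whole reads can be recovered from them. Slc6a18 rested on 145 to 480 reads per library, and with 3 mice a group the intervals of the other genes still hold changes of up to 0.69 on the log2 scale. The limma p-values set group differences against the spread between mice within groups, moderated by a variance trend over all genes.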

Other observations

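The genes whose levels most resembled Slc6a18 over the 9 libraries, chosen after its values were seen, were Eef2 (Pearson r = 0.981), Slc17a5 (0.976), Dcp2 (0.964), Fut4 (0.964) and Bmp8a (0.963). Slc17a5 encodes a lysosomal carrier of sialic acid and acidic amino acids, and Eef2 the factor that moves the ribosome along the message. Of the 9 villus tip genes, Nt5e, Slc28a2 and Ada had coefficients of 0.952, 0.925 and 0.899 with Slc6a18. These 3 were the ones already known to fall with 3pRNA and rise with blockade. Coefficients of the other 6, which did not pass, are not given. These coefficients describe 9 libraries in 3 groups and carry no test, since Slc6a18 differs between the groups.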
